A study of Mus musculus with 12 samples.

Results

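Enzymes of cholesterol synthesis were followed in the developing mouse auditory nerve through 7 genes, Hmgcs1, Idi1, Fdft1, Sqle, Lss, Msmo1 and Dhcr7. The genes were chosen by name, as enzymes spread along the pathway from acetyl units to cholesterol, with earlier results of these data known. All 7 were found among the 18193 genes that the arrays measured with a probe set of a single gene symbol, and 18 probe sets report them. The set was proposed as genes of cholesterol synthesis and uptake, but each of the 7 encodes an enzyme of synthesis and none takes cholesterol up, so uptake genes are counted separately.

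Tissue came from untreated CBA/CaJ mice of both sexes. Their ages were postnatal day 0 (P0), 3 (P3), 7 (P7), 10 (P10), 14 (P14) and 21 (P21), with 2 mice per age. Each of the 12 Affymetrix arrays holds the RNA of both ears of a single mouse, so a pair of arrays measures the spread between animals. What was dissected is the modiolus, the core of the cochlea through which the nerve runs, after removal of the bony shell, the lateral wall and most of the sensory epithelium. It is therefore enriched for nerve, with its neurons and glia, and not pure.

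Cholesterol is assembled in the endoplasmic reticulum from acetyl units through mevalonate, isoprenoids, squalene and lanosterol. The genes of this route are switched on together by the transcription factor encoded by Srebf2 when membrane cholesterol is low, and the Insig proteins hold that factor back when it is high. Myelin is a membrane rich in cholesterol, and myelinating glia build it largely from cholesterol made within the nerve.

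As sums, the markers of the labelled tissue gave signal on all 12 arrays. Summed over 8 genes of spiral ganglion neurons, the log2 level lay between 13.68 and 15.99, and summed over 7 matched genes of peripheral myelin it went from 13.31 to 13.64 at P0 to 15.63 to 15.73 at P7. The brightest genes lead such sums. At P0 the neuron gene Thy1 (6.09 and 5.53) lay below the array medians of 6.73 and 6.71. So did the myelin genes Mag (6.42 and 6.12) and Pmp2 (4.09 and 4.71). Of the 8 neuron genes, 5 were called higher at P21 than at P0 and 1 lower, against 12.4% and 14.9% of all probe sets. Other tissue moved with age as well. The summed log2 level of 6 hair cell and supporting cell genes went from 14.10 to 14.29 at P0 down to 10.23 to 10.43 at P21. Tecta and Tectb, of the tectorial membrane, carried most of that sum at P0. At P21, 3 of the 6 were called lower than at P0, against 14.9% of all probe sets. The hair cell gene Otof, 1 of the 6, was called higher (8.04 to 8.75), against 12.4% of all probe sets. The summed log2 level of 4 matched bone genes went from 9.22 to 9.59 at P0 up to 14.20 to 14.40 at P21. Arrays of P21 stood apart in RNA balance: for Actb, the signal of the 3' control probe sets exceeded that of the 5' ones, on the log2 scale, by 2.32 and 2.03 there, against 0.81 to 1.41 on the other 10 arrays. One mouse of P14, replicate 1, stood apart from the other in neutrophil and marrow genes (summed log2 level 15.60 against 13.47), erythroid genes (12.43 against 10.89) and cell cycle genes (12.14 against 10.24). Results that use these arrays are also given without them or with the balance held fixed where a call changes. In whole tissue, fewer cells of a type and less RNA per cell cannot be told apart.

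Below, a gene is called higher or lower between a pair of stages when its adjusted p, from limma over all 45037 probe sets, is under 0.05 and its fold is over 1.5. Values are log2 expression values of the probe set with the highest mean for the gene, and a difference of 1 is a doubling. Levels on such arrays cannot be set against each other between genes, so changes are read within a gene. Summed levels weight each gene by its probe signal, so a sum is read only against other arrays of the same list.

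Between birth and P7, Hmgcs1, Idi1 and Msmo1 rose. Each of them was called higher at P7, at P10 and at P14 than at P0, by 1.62-fold to 1.89-fold, and Hmgcs1 and Idi1 also at P21. On the mean of both its probe sets, Msmo1 was called at P10 alone. Fdft1 and Sqle were not called in any of the 9 comparisons. Lss was called higher at P21 than at P0 and at P7 than at P3, and Dhcr7 only at P21, against P14.

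**Figure D1:**
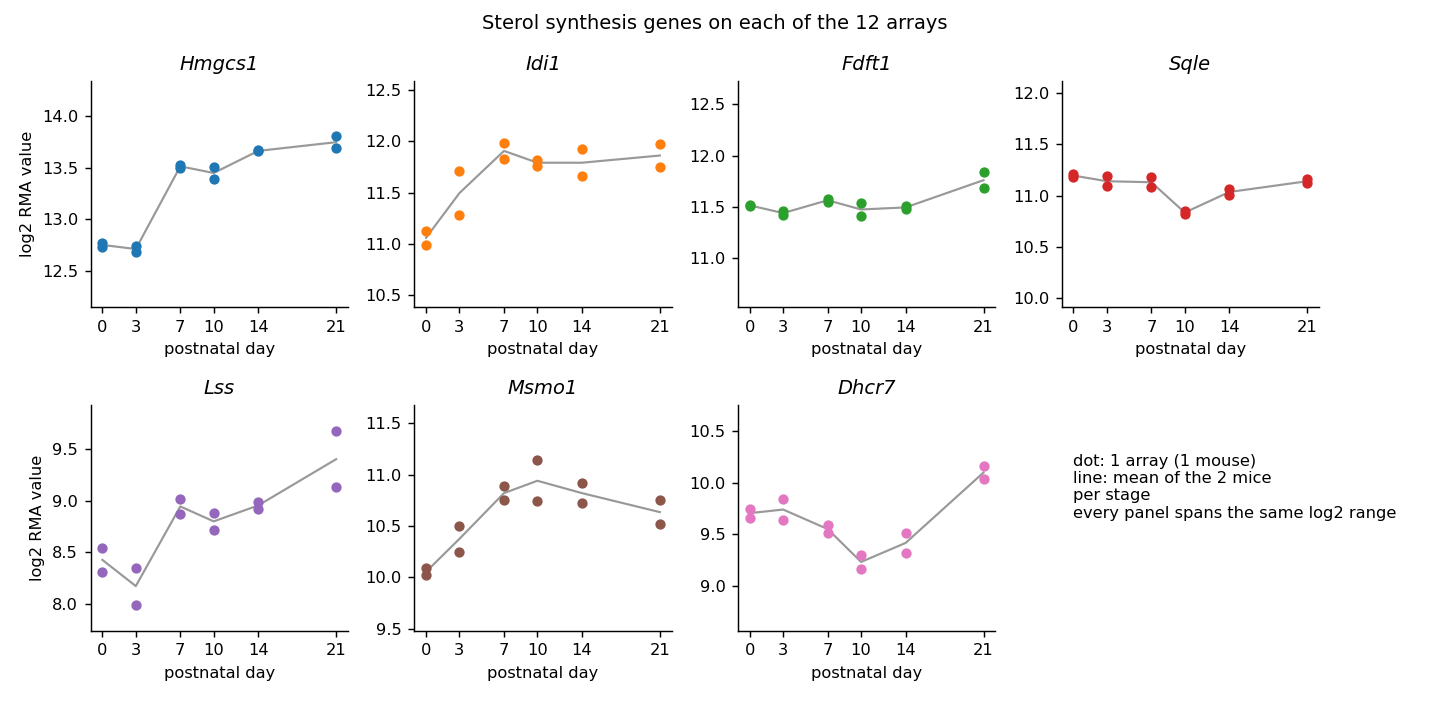
Log2 expression value (vertical axis) of the 7 cholesterol synthesis genes against postnatal day (horizontal axis), with 1 point per array and lines through the means of the 2 mice of a stage. Hmgcs1, Idi1 and Msmo1 lie above both P0 arrays from P7 to P21, whereas the highest stage mean of Fdft1 and of Sqle is 1.25-fold and 1.28-fold its lowest.

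Hmgcs1 encodes the cytosolic synthase that condenses acetoacetyl-CoA with acetyl-CoA into HMG-CoA, at the entrance of the mevalonate route. Its log2 values were 12.73 and 12.77 at P0, 12.74 and 12.68 at P3, 13.53 and 13.50 at P7, 13.51 and 13.39 at P10, 13.67 and 13.66 at P14, and 13.81 and 13.69 at P21. The arrays fell into a low pair of stages, P0 and P3, which overlapped, and 4 high stages that did not overlap with them. Its level against P0 differed by 0.77 ± 0.09 at P7 (log2 difference ± SE, n = 2 mice a stage, limma adjusted p = 0.000534) and was 2-fold at P21 (95% interval 0.79 to 1.21 on the log2 scale, limma adjusted p = 2.75e-05). The step itself lay between P3 and P7, at 1.75-fold (limma adjusted p = 0.000628).

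Idi1 encodes the isomerase that turns isopentenyl diphosphate into dimethylallyl diphosphate, the primer of isoprenoid chains. On the arrays its log2 values read 10.99 and 11.13 at P0, 11.71 and 11.28 at P3, 11.98 and 11.83 at P7, 11.82 and 11.76 at P10, 11.66 and 11.92 at P14, and 11.97 and 11.75 at P21. Its arrays at P0 lay below all the others, and from P10 to P21 the stages overlapped. The difference from P0 was 0.84 ± 0.16 at P7 (1.80-fold, limma adjusted p = 0.00503), 0.73 at P10 and at P14, and 0.80 at P21 (1.74-fold, limma adjusted p = 0.0023). At P3 the difference was 0.43, with a 95% interval from 0.09 to 0.78, and was not called (limma adjusted p = 0.145). Of the P3 mice, one had a value near those of P7 and the other a value nearer those of P0.

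Msmo1 encodes the oxidase that starts the removal of the methyl groups at carbon 4 of the sterol ring. Measured log2 values were 10.09 and 10.02 at P0, 10.50 and 10.25 at P3, 10.89 and 10.75 at P7, 11.14 and 10.74 at P10, 10.72 and 10.92 at P14, and 10.75 and 10.52 at P21. P0 was lowest and P10 highest, 1.85-fold apart (limma adjusted p = 0.00193), and P7, P10 and P14 overlapped. At P21 the difference from P0, 0.58 ± 0.16 (1.49-fold, limma adjusted p = 0.0128), came just short of the fold limit. The gene passed that limit at P21 when either P0 replicate 1 or P21 replicate 2 was left out, with differences of 0.61 and 0.69. Its second probe set, with log2 values from 4.26 to 5.19, was dim and was not called in any comparison, and it differed from P0 by 0.09 at P7 and by −0.24 at P21. On the mean of both probe sets Msmo1 differed from P0 by 0.43 at P7 (limma adjusted p = 0.069) and by 0.48 at P14 (limma adjusted p = 0.0279, under the fold limit), so those 2 calls were lost, and by 0.60 at P10, still called.

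These rises were set against the whole array, on an unlike basis. Each of the 7 genes stands by its brightest probe set, at percentiles from 65.8 to 99.8 of an array. The share over all probe sets also counts dim, secondary and unnamed ones. At P7, 3 of the 7 genes were called higher than at P0 and none lower, where 5.44% of all probe sets were called higher and 5.68% lower. At P10 it was again 3 of 7, against 9.24% of all probe sets higher and 10.1% lower. At P14 it was 3 of 7 against 10.2% higher and 11.3% lower, and at P21 3 of 7 against 12.4% higher and 14.9% lower. The median log2 difference of the 7 genes from P0 was −0.04 at P3, 0.52 at P7, 0.38 at P10, 0.53 at P14 and 0.58 at P21, whereas the median over all probe sets lay between −0.01 and 0.04. At P3 none of the 7 was called by limma, against 0.981% of all probe sets higher and 2.8% lower, although 1 of them, Idi1, had an unadjusted p under 0.05. The test of the study's methods, without adjustment, called 0 there.

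The calls at P7 leaned on single mice. Without P7 replicate 1 only Hmgcs1 of the 3 was still called (Idi1 0.77, limma adjusted p = 0.0508, and Msmo1 0.69, limma adjusted p = 0.0729), and without P0 replicate 2 Msmo1 was not (0.73, limma adjusted p = 0.0593). At P14, leaving out replicate 1, the mouse with high marrow genes, gave 0.91 for Hmgcs1, 0.86 for Idi1 and 0.86 for Msmo1, all still called. At P21 the 3' to 5' balance moved with the stage. A fit with the balance as a covariate therefore cannot tell stage from balance there, and a lost call decides neither way. With the Actb balance as a covariate the differences from P0 were 0.92 for Hmgcs1 (limma adjusted p = 0.231), 0.63 for Idi1 (limma adjusted p = 0.665) and 0.55 for Lss (limma adjusted p = 0.759), so none of the 3 was called there.

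**Figure D2:**
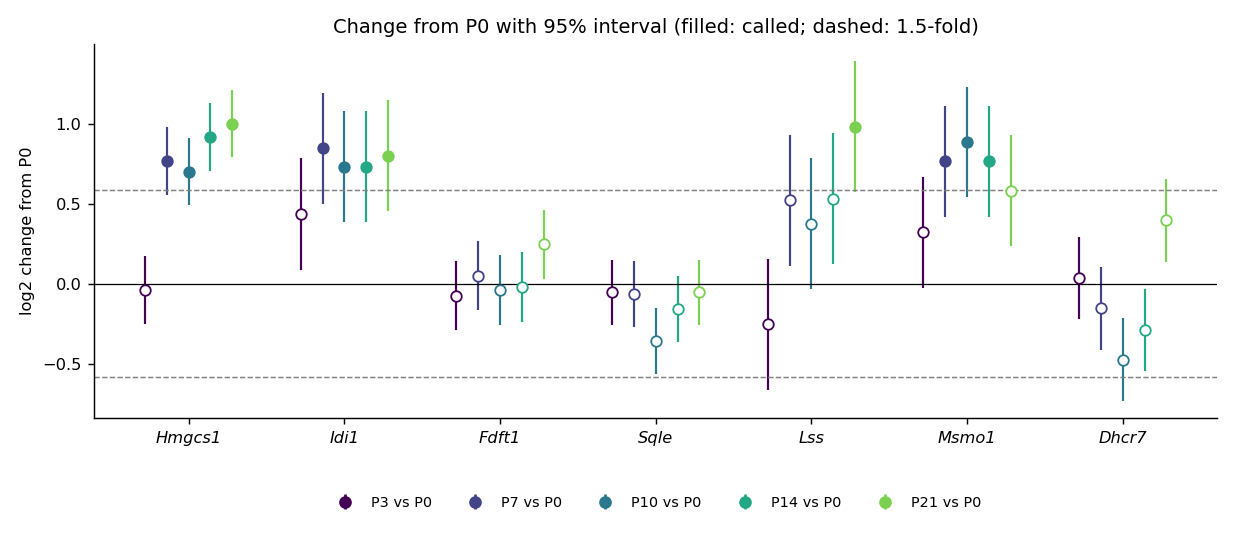
Log2 change from P0 (vertical axis) of each gene at P3, P7, P10, P14 and P21, with 95% intervals from limma over all 12 arrays. Filled points were called, the dashed lines mark the 1.5-fold limit, and filled points stand above that line for Hmgcs1 and Idi1 from P7 on, for Msmo1 from P7 to P14 and for Lss at P21.

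The start regions of the 3 genes that rose from P7 are shown because these genes were called at the same 3 stages, P7, P10 and P14. The genes were picked for this after their values were seen. Each line gives the 250 bases before the annotated start in GRCm38.p6, from RefSeq, read 5' to 3' on the gene's strand. Capitals mark exact matches, on either strand, to the core of the sterol regulatory element bound by the Srebf proteins (TCACNCCAC), the box bound by NF-Y (CCAAT, or ATTGG on the other strand) and the box bound by Sp1 (GGGCGG, or CCGCCC on the other strand). None of the 3 motifs is contained in another. The windows lie at chr13:119690101-119690350 on the plus strand for Hmgcs1, chr13:8885356-8885605 on the plus strand for Idi1 and chr8:64733579-64733828 on the minus strand for Msmo1.
Hmgcs1: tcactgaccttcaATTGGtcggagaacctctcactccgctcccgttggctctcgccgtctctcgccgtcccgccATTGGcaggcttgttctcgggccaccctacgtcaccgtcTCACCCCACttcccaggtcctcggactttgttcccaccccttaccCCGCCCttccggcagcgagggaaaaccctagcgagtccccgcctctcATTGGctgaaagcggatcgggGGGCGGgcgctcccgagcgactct
Idi1: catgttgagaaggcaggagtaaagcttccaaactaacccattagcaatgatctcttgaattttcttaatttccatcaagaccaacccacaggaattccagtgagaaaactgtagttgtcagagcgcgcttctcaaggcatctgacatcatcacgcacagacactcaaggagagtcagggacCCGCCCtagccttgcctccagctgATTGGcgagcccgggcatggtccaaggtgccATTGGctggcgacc
Msmo1: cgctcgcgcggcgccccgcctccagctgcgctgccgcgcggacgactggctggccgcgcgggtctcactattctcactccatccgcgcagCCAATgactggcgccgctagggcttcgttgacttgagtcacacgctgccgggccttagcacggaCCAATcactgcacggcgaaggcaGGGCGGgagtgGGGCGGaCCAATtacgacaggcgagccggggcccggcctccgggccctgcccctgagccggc

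The sterol element core was matched in Hmgcs1 alone, 137 to 129 bases before the start, and not in the windows of Idi1, Msmo1, Lss or Dhcr7. It stood in 1.05% of the 32851 windows, and in a window of 1.22% of the 27025 genes, in the table. The NF-Y box was matched in a window of all 5 genes that have one, against 37.5% of all genes, and the Sp1 box in all 5, against 35.4%. Per window these shares were 33.8% and 32.7%. Dhcr7 has 3 windows, of which 1 held the NF-Y box. Hmgcs1 and Msmo1 each held 3 NF-Y boxes, and Idi1 held 2. Lss and Dhcr7, which were not called against P0 at P7, P10 or P14, held both boxes too. Sqle and Fdft1 had no window in the table used. A match describes letters in these windows and no more.

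Fdft1 and Sqle carry the first committed steps towards sterols. Fdft1 encodes squalene synthase, which joins a pair of farnesyl diphosphates, with log2 values of 11.52 and 11.51 at P0, 11.46 and 11.42 at P3, 11.55 and 11.58 at P7, 11.54 and 11.41 at P10, 11.48 and 11.51 at P14, and 11.84 and 11.68 at P21. From P0 to P14 the stage means stayed within 11.44 and 11.57, and only the P21 arrays lay above all others. At P7 the 95% interval of the difference from P0 ran from −0.17 to 0.27, and at P21 the difference was 0.24 (limma adjusted p = 0.0688, interval 0.03 to 0.46). On the mean of its 4 probe sets the P21 difference was −0.06, and with the Actb balance as a covariate −0.0012, so its direction at P21 was not settled.

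Sqle encodes squalene epoxidase, which adds the oxygen needed for ring closure and is a rate-limiting step of the route. The arrays gave it log2 values of 11.21 and 11.18 at P0, 11.19 and 11.09 at P3, 11.08 and 11.18 at P7, 10.85 and 10.82 at P10, 11.06 and 11.01 at P14, and 11.12 and 11.16 at P21. The arrays of P10 lay below all 10 others. At P10 the difference from P0 was −0.36 ± 0.09 (1.28-fold, limma adjusted p = 0.0142), under the fold limit, and the intervals at P7 (−0.27 to 0.14) and P21 (−0.26 to 0.15) both exclude a 1.5-fold rise. Sqle has a single probe set here.

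Lss encodes lanosterol synthase, the cyclase that closes the sterol rings. In log2 units it stood at 8.31 and 8.54 at P0, 8.35 and 7.99 at P3, 9.02 and 8.87 at P7, 8.88 and 8.72 at P10, 8.92 and 8.99 at P14, and 9.68 and 9.13 at P21. The arrays of P0 and P3 overlapped and lay below the rest, and the P21 mice stood highest, 0.55 apart. Lss was called higher at P21 than at P0 (0.98 ± 0.18, 1.97-fold, limma adjusted p = 0.00183), while the differences at P7 (0.52, limma adjusted p = 0.0869) and P14 (0.53, limma adjusted p = 0.0512) missed the threshold. From P3 to P7, 2 of the 7 genes were called higher, Hmgcs1 and Lss, against 6% of all probe sets higher and 3.98% lower, with 0.78 ± 0.18 for Lss (1.71-fold, limma adjusted p = 0.0192). Without P3 replicate 2 or P7 replicate 1 the Lss call was lost (0.59 and 0.70, limma adjusted p = 0.121 and 0.13), and 1 of its 3 probe sets carried it.

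Dhcr7 encodes the last enzyme of one branch, which reduces 7-dehydrocholesterol to cholesterol. Log2 values of the gene were 9.75 and 9.66 at P0, 9.84 and 9.64 at P3, 9.59 and 9.51 at P7, 9.30 and 9.16 at P10, 9.32 and 9.51 at P14, and 10.16 and 10.04 at P21. The course was a trough: P10 lay lowest, P21 highest, and neither overlapped with any other stage. At P10 the difference from P0 was −0.48 ± 0.12 (1.39-fold, limma adjusted p = 0.0113), within the fold limit. From P14 to P21 Dhcr7 rose by 0.69 ± 0.12 (1.61-fold, limma adjusted p = 0.02), the single call among the 7 genes in that step, where 0.722% of all probe sets were called higher and 1.73% lower.

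That late rise of Dhcr7 was fragile. It was not called without P14 replicate 1 (0.59, limma adjusted p = 0.195), without P21 replicate 1 (0.62, limma adjusted p = 0.0701), or with the Actb balance as a covariate (0.54, limma adjusted p = 0.921).

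Few probe sets of the array were called between P7 and P14. Against P7, limma called none of the 7 genes at P10, where 0.231% of all probe sets were called, with 2 of the 7 at an unadjusted p under 0.05. These were Sqle (−0.30, 95% interval −0.50 to −0.09) and Dhcr7 (−0.32, 95% interval −0.58 to −0.06), and the arrays of P7 and P10 did not overlap in either. Against P10 it called none at P14, where no probe set of the array was called either, with 1 of the 7 (Hmgcs1) at an unadjusted p under 0.05, and the test of the study's methods, unadjusted, called 0 in both steps. Over all 6 stages together, the moderated F-test gave an adjusted p under 0.05 for 5 of the 7 genes, against 45.5% of all probe sets. These were Hmgcs1 (4.3e-05), Dhcr7 (0.00198), Lss (0.00355), Msmo1 (0.00612) and Idi1 (0.00796), and the others were Sqle (0.0608) and Fdft1 (0.135).

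The 7 genes thus followed more than 1 course, and the distance between their stage means, each gene centred on its own mean, gives the order. Of 21 pairs, Idi1 and Msmo1 were closest (root mean square distance 0.12 on the log2 scale), then Fdft1 and Sqle (0.13) and Hmgcs1 and Lss (0.14). Hmgcs1 and Dhcr7 were farthest apart (0.52), with Msmo1 and Dhcr7 next (0.50). Along the pathway the genes that rose from P7 lay on both sides of those that were not called: Hmgcs1 and Idi1 stand before squalene, Msmo1 stands after lanosterol, and Fdft1 and Sqle lie between them.

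**Figure D3:**
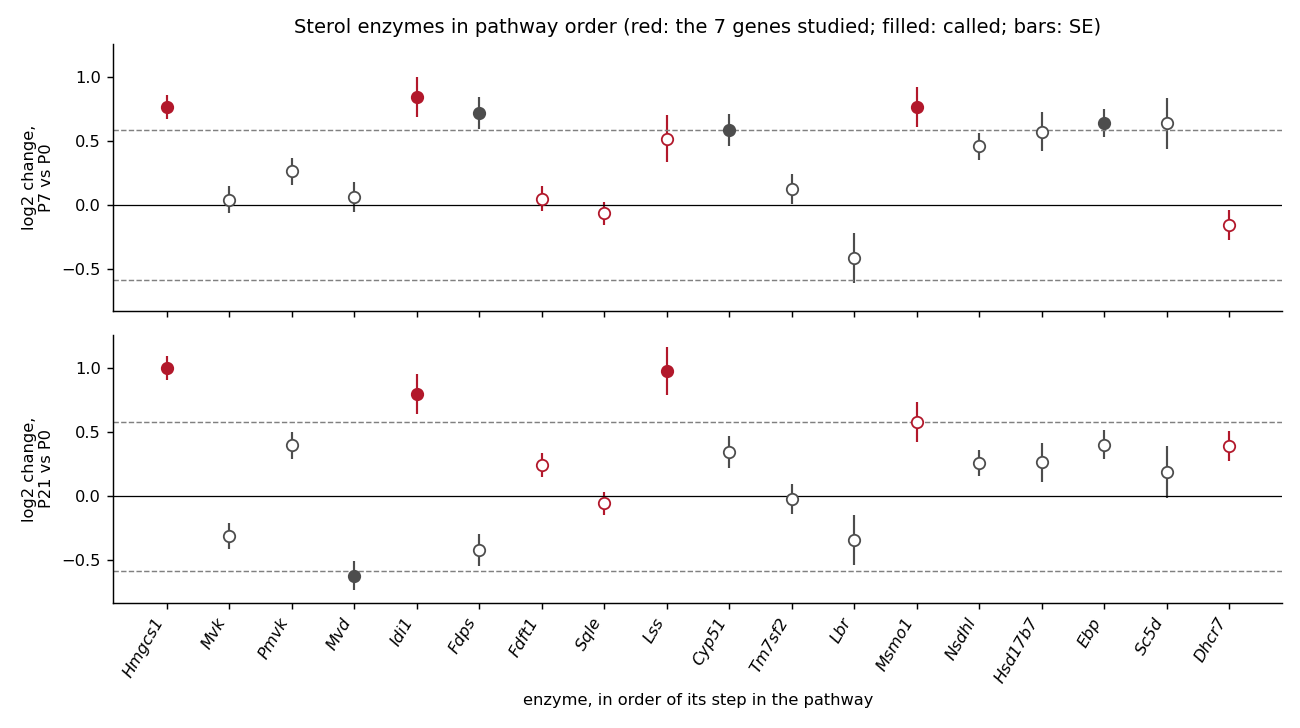
Log2 change from P0 (vertical axis) at P7, above, and P21, below, of 18 enzymes in the order of their steps, with the 7 genes in red, 11 of the 12 other matched enzymes in grey (Ggps1 is not drawn), bars for SE, filled points for calls and dashed lines at 1.5-fold. Hmgcs1 and Idi1 are filled in both panels, Msmo1 at P7 only and Lss at P21 only, while Fdft1 and Sqle between them stay at most 0.24 from P0.

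Some of the genes are read by more than 1 probe set, and these did not move alike. Hmgcs1 has 5. A dim one, with log2 values from 4.59 to 6.33, was called higher than P0 at P10, P14 and P21, and another was called at all 4 stages from P7, with 1.18 at P7 and 0.65 at P21. The remaining pair was called at P14 and P21, with differences of 0.69 to 0.85, and was not called before that. The second probe set of Idi1 was called at the same 4 stages as the first, at 0.89, 0.79, 0.90 and 0.94. Neither of the other probe sets of Lss was called in any comparison. One of them differed by 0.54 at P21 (limma adjusted p = 0.00515), and the mean over all 3 gave 0.55, under the fold limit, so on that mean the P21 call of Lss was lost.

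**Figure D4:**
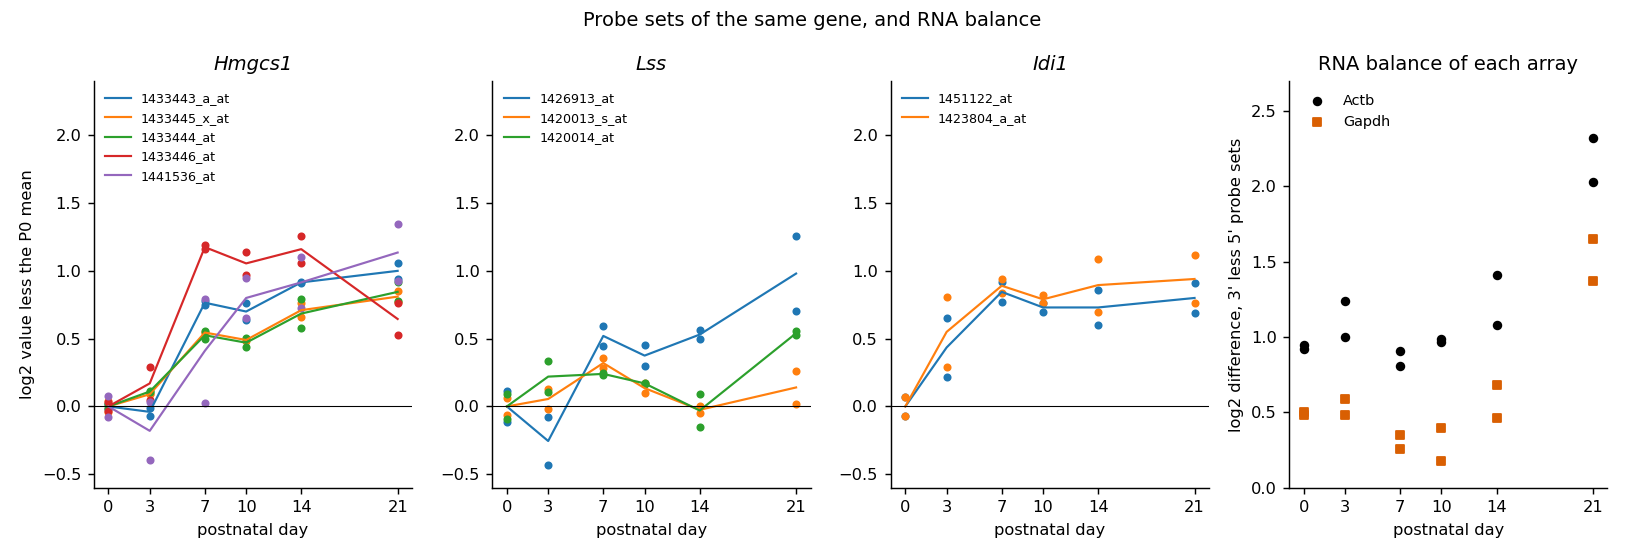
Log2 value less the P0 mean (vertical axis) against postnatal day for every probe set of Hmgcs1, Lss and Idi1, with points for arrays and lines for stage means, and at the right the log2 difference between 3' and 5' control probe sets on each array. The probe sets of Hmgcs1 and Idi1 rise by P21, those of Lss do not rise alike, and the P21 arrays lie at 2.03 and 2.32 for Actb.

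Among the other enzymes of the route, Fdps, Cyp51 and Ebp were called higher at P7. The 12 matched enzymes outside the 7 include Ggps1, which lies on a side branch of the route. Of these 12, 3 were called higher than P0 at P7, 2 at P10, 1 at P14 and none at P21, where 1 was lower. Their median log2 differences were 0.36, 0.34, 0.20 and 0.22. At P7, P10, P14 and P21, 5.44%, 9.24%, 10.2% and 12.4% of all probe sets were called higher, and 14.9% lower at P21. Over the other settings the count of these 12, over both directions, ran from 0 to 5 at P7 and from 0 to 7 at P10. It was 0 by the methods' test after adjustment and 5 and 7 without a fold limit. Those 7 at P10 include Mvk (−0.34) and Mvd (−0.37), which were lower than at P0. Fdps, which makes farnesyl diphosphate, rose 1.65-fold at P7 (limma adjusted p = 0.00328) and then stood at 9.41 and 9.72 at P21, below its 9.99 and 9.98 at P0. On the mean of its probe sets Fdps differed by 0.30 at P7 and was not called. Ebp, a sterol isomerase, was higher at P7 and P10 (1.56-fold and 1.55-fold). Cyp51, the lanosterol demethylase, lay exactly at the fold limit at P7 (1.5-fold, limma adjusted p = 0.011), and Sc5d, a sterol desaturase, was called at P10 and P14 (1.61-fold and 1.58-fold). Mvd, which makes isopentenyl diphosphate, fell 1.54-fold by P21 (limma adjusted p = 0.00173). The call of Cyp51 at P7 was lost without either P0 array or P7 replicate 1, and that of Sc5d at P10 without any single array of P0 or P10, which took the count to 1. The count fell to 0 at P14 without either P0 array or P14 replicate 1, and at P21 without P0 replicate 1.

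Of 7 genes that sense sterols and switch the route, Insig2, which retains the Srebf proteins in the endoplasmic reticulum, rose most. Its log2 values were 9.70 on both P0 arrays, 10.37 and 10.16 at P3, 10.63 and 10.65 at P7, 10.92 and 11.01 at P10, 10.84 and 10.99 at P14, and 11.14 and 10.90 at P21. It was called higher at each stage from P7 on, by 1.92-fold at P7 (limma adjusted p = 0.000577) and by 2.50-fold at P21 (limma adjusted p = 1.91e-05). Insig1, its paralogue, was called higher at P21 (1.84-fold, limma adjusted p = 0.000935). Mbtps2, the protease that releases the Srebf factors, was called lower at P10 and P14 (1.51-fold and 1.64-fold). Srebf2 itself lay at 9.36 and 9.06 at P0, at 8.76 and 8.56 at P10 and at 9.18 and 9.01 at P21. Its arrays of P10 and P0 did not overlap, with a difference of −0.55 (1.46-fold, limma adjusted p = 0.0122), and at P14 the difference was −0.40 (limma adjusted p = 0.0493). Both lay under the fold limit, so it was not called. The medians of the 7 were −0.23, −0.27, −0.18 and 0.15 at P7, P10, P14 and P21. At P10, 9.24% of all probe sets were called higher and 10.1% lower. The count at P10, 2 over both directions, was 1 without P10 replicate 2 and 4 without P0 replicate 2, and with the Actb balance as a covariate neither Insig gene was called at P21 (0.99 for Insig2 and 1.05 for Insig1, limma adjusted p = 0.281 and 0.395).

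Genes of cholesterol uptake, storage, transport and export moved singly. Of 13 matched, 1 was called higher than P0 at P7, 2 at P10, 3 at P14 and 3 at P21. Over the whole array, 5.44%, 9.24%, 10.2% and 12.4% of probe sets were called higher at these stages. In the list 1 was called lower at P3 and 1 at P10, against 2.8% and 10.1% of all probe sets. Medians were 0.26, 0.12, 0.04 and 0.00 from P7 to P21. Ch25h, which makes 25-hydroxycholesterol, had the tallest rise, from 6.18 and 6.33 at P0 to 8.53 and 8.68 at P10 (5.10-fold, limma adjusted p = 2.26e-05). The summed log2 level of 5 macrophage genes went from 11.74 to 11.80 at P0 to 12.92 to 13.02 at P10, and its part in the Ch25h result was not tested. Mylip, a ubiquitin ligase for lipoprotein receptors, was called higher at P10 and P14 (1.74-fold and 1.68-fold). Lrp1, an endocytic lipoprotein receptor, was called lower at P3 (2.44-fold) and P10 (1.66-fold), but the mean over its probe sets at P3 was −0.49 and was not called. Without P0 replicate 1 or P7 replicate 1, no gene of this list was called at P7, and without P0 replicate 2 the count at P21 was 5.

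Myelin genes moved by more than the cholesterol genes between P0 and P7. Of 7 matched peripheral myelin genes, all 7 were called higher at P7 than at P0, against 5.44% of all probe sets. Their median log2 difference was 2.14. Of 10 genes for myelin lipids other than cholesterol, 8 were called higher, with a median of 1.11. Among these, Fa2h, which hydroxylates the fatty acids of myelin lipids, rose 16.2-fold at P7 (limma adjusted p = 4.87e-07), and Ugt8a, which makes galactosylceramide, rose 4.81-fold. The summed log2 level of the 7 cholesterol genes went from 14.00 and 14.03 at P0 to 14.52 and 14.56 at P7. The sum of peripheral myelin genes stood at 14.60 and 14.62 at P3. At P3, 5 of the 7 peripheral myelin genes but none of the 7 cholesterol genes were called higher than at P0, against 0.981% of all probe sets. Sums add unlogged signals, so Hmgcs1, with the highest signal of the 7, carried most of the rise in the cholesterol sum. The sum over 7 oligodendrocyte genes went from 11.83 to 12.08 at P0 to 14.58 to 14.78 at P21. How far a change in glial content enters the values of the 7 genes was not tested.

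**Figure D5:**
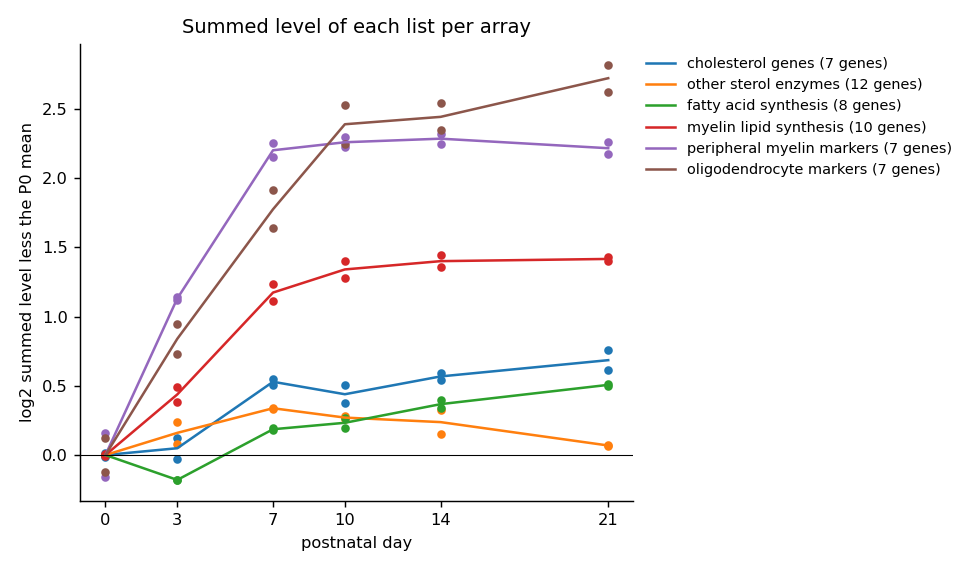
Log2 of the summed level of each gene group, less its P0 mean (vertical axis), against postnatal day, with 1 point per array and lines through the stage means. The sum of the 7 cholesterol genes went from 14.00 and 14.03 at P0 to 14.63 and 14.77 at P21. Hmgcs1, with the highest signal of the 7, carried most of that rise. The sum spanned less than those of the peripheral myelin, myelin lipid and oligodendrocyte genes.

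Outside these lists, the genes whose stage means lay nearest to the mean course of the 7 were Rnf170, Banp, Unc93b1, Itgb7, Tm6sf2 and Arap1, with root mean square distances from 0.03 to 0.05 over the 6 stage means, among 18193 genes. Tm6sf2 was dim, with stage means from 5.06 to 5.695 where array medians were 6.70 to 6.79, and Itgb7 lay near those medians (6.385 to 6.91). The mean course was −0.27 at P0, −0.22 at P3, 0.12 at P7, −0.01 at P10, 0.08 at P14 and 0.29 at P21 after centring. The 7 genes themselves lay 0.13 (Fdft1) to 0.30 (Dhcr7) from it, and for Dhcr7 10233 genes were nearer, so the mean course described none of them closely.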

How the data were processed

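RNA from 12 mice, 2 at each of 6 ages, was hybridised to Affymetrix mouse 3' expression arrays. The deposited values are log2 RMA values that the authors made in Affymetrix Expression Console, which means background correction, quantile normalization and a summary per probe set. RMA and MAS5 are both named in the submitters' notes without versions, and the near-equal array medians (6.70 to 6.79) are those of RMA. No further normalization was applied, and 0 columns belonged to other samples.

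The table has 45101 probe sets. Without its 64 controls, 45037 were tested, 34945 of them with 1 gene symbol, 932 with several and 9160 with none. A gene is represented by its single-symbol probe set with the highest mean. The 6 stages were fitted together with limma 3.58.1 (lmFit and eBayes, R 4.3.3), with 6 residual degrees of freedom, with Benjamini-Hochberg adjustment over all probe sets. Comparisons were of P3 to P21 against P0, and of consecutive stages from P3 on. The number of arrays limits precision. The 7 genes, the gene lists and the tests were chosen with earlier results of these data known. All 7 genes were named. Likeness of course was taken over the 6 stage means, and the 6 nearest genes outside the lists were named. Motifs were counted in RefSeq windows of GRCm38.p6. The fit was tested on simulated data. Some pathway genes are not reported here.

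Alternative settings were array weights, an intensity trend, a replicate block, each array left out in turn, the compared arrays alone, no dim probe sets, equal array medians, the mean over a gene's probe sets, the methods' t-test and no fold limit. The Actb 3' to 5' balance as a covariate was chosen after seeing the data. It was highest on the P21 arrays, so for P21 it cannot tell balance from stage.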

Additional observations from a re-analysis of the deposited data

How the results depend on the processing

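Of the 15 called changes of the 7 genes, none turned direction under any of 23 settings. Most of these settings could not have turned one, so the count says little about direction. The t-tests, the block, the trend and the fold limit keep the difference itself. Leaving out 1 array cannot reverse it where the compared arrays do not overlap, as in all 15. With 2 arrays a stage, leaving out 1 array moved the number of genes called from 3 to between 1 and 3 for P7 against P0, from 3 to between 3 and 4 for P21 against P0, from 2 to between 1 and 3 for P7 against P3, from 1 to between 0 and 1 for P21 against P14, and from 5 to between 4 and 5 over the 6 stages. P7 against P0 fell to 1 without P7 replicate 1, P7 against P3 to 1 without P3 replicate 2 or P7 replicate 1, and P21 against P14 to 0 without P14 replicate 1 or P21 replicate 1. With the methods' t-test adjusted over all probe sets, 0 genes were called in P7, P10, P14 and P21 against P0, in P7 against P3 and in P21 against P14, and unadjusted it called 3, 3, 3, 2 (without Lss), 1 and 1. Without a fold limit 5 genes were called at P10, where Sqle (−0.36) and Dhcr7 (−0.475) were lower than at P0. At P21 it called 5, all higher. With the Actb balance as a covariate 0 were called at P21 against P0, 1 at P7 against P3 and 0 at P21 against P14, and the other sterol enzymes and the genes of sterol sensing, uptake and fatty acid synthesis also gave 0 calls at P21 against P0. On the mean of all probe sets 1 was called at P7 against P3, and 2 instead of 3 at P7, P14 and P21 against P0, without Msmo1, Msmo1 and Lss in turn. On the 4 arrays alone 0 were called at P21 against P14.

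Replicate numbers were not used to pair the samples. In 6 of 15 pairs of stages same-numbered arrays deviated together with a correlation over 0.1, within −0.125 to 0.317. Whether same-numbered arrays share a processing step was not tested. With the replicate block 3 genes were called at each of P7, P10, P14 and P21 against P0, 2 at P7 against P3, 1 at P21 against P14 and 5 over the 6 stages, as without it.

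Differences not called, and 1 that was, changed sign as follows, and the cause was not tested. On the mean of all probe sets Hmgcs1 gave 0.03 at P3 against P0 and 0.019 at P10 against P7, Lss 0.0067 at P3 and −0.0683 at P14 against P10, and Fdft1 −0.065 at P21 and −0.11 at P14 against P10. With the Actb covariate Fdft1 gave −0.0012 at P21 and −0.0326 at P14 against P10, Sqle 0.1457 at P21, Idi1 −0.0607 at P21 against P14, and Nr1h3, which was called at P21 without the covariate, −0.0869 (limma adjusted p = 0.945). Leaving out 1 array gave −0.065 to 0.135 for Dhcr7 at P3 against P0, −0.105 to 0.025 for Fdft1 at P10 against P0, −0.06 to 0.04 for Sqle at P7 against P3, −0.08 to 0.32 for Msmo1 at P10 against P7, −0.32 to 0.08 for Msmo1 and −0.045 to 0.085 for Fdft1 at P14 against P10, and −0.06 to 0.2 for Idi1 at P21 against P14.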

Other observations

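Fatty acid synthesis, which the Srebf proteins also control, moved in both directions among 8 genes. Scd1, which desaturates fatty acids, was called higher than P0 at P7 (2.35-fold, limma adjusted p = 0.00107) and at P21 (4.55-fold, limma adjusted p = 9.59e-06), from log2 values of 10.45 and 10.61 at P0 to 12.94 and 12.49 at P21. Acss2, which makes acetyl-CoA from acetate, was called higher at P14 and P21 (1.96-fold and 2.60-fold). Fasn, the fatty acid synthase, was called lower at P3 (1.57-fold, lost without P0 replicate 1) and P10 (1.75-fold, limma adjusted p = 0.000304) and stood at 10.82 and 10.83 at P21 against 11.02 and 10.90 at P0. The list held 2 genes called higher at P7, 1 at P10, 2 at P14 and 2 at P21, with medians of 0.20, 0.24, 0.35 and 0.26. Among all probe sets 5.44%, 9.24%, 10.2% and 12.4% were called higher at these stages. The shares called lower were 2.8% at P3 and 10.1% at P10.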
